A study of Mus musculus with 16 samples.

Results

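The replication-dependent histone genes are the protein-coding genes of the 4 histone gene clusters of the mouse, taken here as every protein-coding gene of a GENCODE annotation of GRCm38 whose symbol begins with Hist1h, Hist2h, Hist3h or Hist4h. The annotation holds 67 of them, and 65 were among the 46517 gene identifiers of the count files; Hist1h2bm and Hist1h2bh were not analysed here. Of the 65, 6 encode the linker histone H1, 18 encode H2A, 16 H2B, 12 H3 and 13 H4. The Hist1 cluster on chromosome 13 (chr13:21715763-23934851) held 52 of them, Hist2 (chr3:96219865-96270132) 10, Hist3 (chr11:58948920-58956830) 2 and Hist4 (chr6:136801553-136804415) 1, all in GRCm38 coordinates.

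The libraries were made from total RNA of live CD4+CD8+ thymocytes sorted from 16 NOD-AI4 mice 6 to 7 weeks old. All 16 mice were of the non-obese diabetic strain and carried AI4, the transgenic T cell receptor of an autoreactive CD8 T cell clone, so the controls carry that transgene too. Controls were NOD-AI4 mice whose labels name no Nfkbid allele (n = 6, of which 3 were male). A group of 5, of which 4 were male, carries the label NOD-AI4-Nfkbid-/- and is called knockout-labelled below. The remaining 5, of which 3 were male, were NOD-AI4-60A mice, which carry an Nfkbid transgene. Each mouse gave 1 library. Nfkbid encodes IκBNS, a nuclear IκB protein, and the series asks how its loss and its overexpression bear on thymic deletion of AI4 cells; which promoter drives the 60A transgene is not stated in the sources used here.

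Replication-dependent histone genes supply the histones that package newly made DNA. They are typically transcribed in S phase, most have no introns, and most of their mRNAs end in a short stem-loop instead of a poly(A) tail. The stem-loop is bound by SLBP, the stem-loop binding protein, and the mRNA is cut just after it with the help of the U7 small nuclear RNA. The mRNAs are degraded when DNA synthesis stops. Double-positive thymocytes arise from a burst of dividing precursors and then largely leave the cell cycle.

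The stem-loop was read from the reference transcripts because it is the feature that sets these mRNAs apart. The 16-base pattern searched was GGNNNTTTTNANNNCC with 6-base arms that are complementary and a 4-base loop. It was found in 42 of the 65 members (64.6%) and in 11 of 21799 other protein-coding genes (0.0505%). The 6 forms found follow, 5′ to 3′ as DNA of the sense strand, with the arms of the stem in capitals and the loop in lower case.
Hist1h2ap and Hist1h2ao, the form of 24 members: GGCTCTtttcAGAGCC
Hist1h4m, the form of 7 members: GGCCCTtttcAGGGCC
Hist1h2bk, the form of 6 members: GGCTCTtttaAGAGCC
Hist1h4b and Hist1h4j: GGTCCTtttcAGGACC
Hist1h4i and Hist2h4: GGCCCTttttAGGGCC
Hist2h2ac: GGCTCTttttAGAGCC

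The arms divided by class. All 11 H4 members with a match had GGCCCT arms (9) or GGTCCT arms (2), while the 4 H1, 11 H2A, 8 H2B and 8 H3 members with a match all had GGCTCT arms. The annotated transcript ended at most 100 bases past the stem-loop in 21 of the 42, as in Hist1h2ap (3 bases) and Hist1h2ao (31 bases). It ran over 100 bases past it in the other 21, as in Hist1h1c (840 bases), Hist3h2a (1643 bases) and Hist4h4 (2445 bases). The 23 members without a match include Hist2h2be, whose annotated transcript is 2620 bases long; no match says only that these letters are absent from the annotated transcript.

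Promoters, here 250 bases before to 50 bases after each RefSeq start (GRCm38.p6), were matched for 60 of the 65 members. Searched on both strands, the CCAAT motif was in 85% of the 60 windows beside 37.3% of 32790 other promoters. TATAAA was in 58.3% beside 13.5%, the octamer ATTTGCAT in 20% beside 1.70%, and AAACACA, the H1 box, in 13.3% beside 7.17%. The motifs also divided by class. CCAAT was in every matched H1, H2A, H2B and H3 window (6, 18, 14 and 10) but in 3 of 12 H4 windows. The octamer was in 7 of 18 H2A and 5 of 14 H2B windows and in no H1, H3 or H4 window, and AAACACA was in 5 of 6 H1 windows. The windows of 5 members that lead the results below follow on their own strand, with every match of the 4 motifs in capitals, whichever strand it is on.
Hist1h2ap, chr13:21833426-21833725, minus strand: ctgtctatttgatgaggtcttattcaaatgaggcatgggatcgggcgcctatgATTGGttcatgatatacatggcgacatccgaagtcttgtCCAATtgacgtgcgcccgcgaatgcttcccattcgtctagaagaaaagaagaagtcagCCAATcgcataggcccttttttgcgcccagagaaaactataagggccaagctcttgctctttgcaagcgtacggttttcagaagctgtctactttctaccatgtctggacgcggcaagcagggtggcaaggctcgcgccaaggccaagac
Hist1h2ao, chr13:21810117-21810416, plus strand: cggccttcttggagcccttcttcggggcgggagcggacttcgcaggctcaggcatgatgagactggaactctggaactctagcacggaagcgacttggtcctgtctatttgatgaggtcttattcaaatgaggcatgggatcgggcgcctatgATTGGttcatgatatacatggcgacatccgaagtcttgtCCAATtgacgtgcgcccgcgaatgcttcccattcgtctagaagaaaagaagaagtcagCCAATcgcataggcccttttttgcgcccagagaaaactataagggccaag
Hist1h2bj, chr13:22042948-22043247, plus strand: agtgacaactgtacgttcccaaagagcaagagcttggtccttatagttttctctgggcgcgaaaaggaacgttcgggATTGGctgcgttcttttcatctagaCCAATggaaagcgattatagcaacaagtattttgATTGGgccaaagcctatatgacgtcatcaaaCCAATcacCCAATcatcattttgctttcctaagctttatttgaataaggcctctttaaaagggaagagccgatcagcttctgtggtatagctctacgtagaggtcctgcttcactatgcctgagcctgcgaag
Hist1h2bk, chr13:22035571-22035870, plus strand: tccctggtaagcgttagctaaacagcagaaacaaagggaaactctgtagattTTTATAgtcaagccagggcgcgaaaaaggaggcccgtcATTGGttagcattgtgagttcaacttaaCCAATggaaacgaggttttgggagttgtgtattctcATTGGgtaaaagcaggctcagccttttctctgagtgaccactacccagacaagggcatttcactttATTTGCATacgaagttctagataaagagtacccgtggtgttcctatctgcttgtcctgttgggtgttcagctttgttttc
Hist1h4a, chr13:23761200-23761499, minus strand: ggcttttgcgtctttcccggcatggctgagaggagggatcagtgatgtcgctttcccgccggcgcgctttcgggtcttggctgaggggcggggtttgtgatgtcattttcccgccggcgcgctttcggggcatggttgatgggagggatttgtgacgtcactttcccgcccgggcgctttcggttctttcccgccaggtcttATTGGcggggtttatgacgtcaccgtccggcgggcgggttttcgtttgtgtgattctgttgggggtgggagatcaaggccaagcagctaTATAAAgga

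Hist1h2ap and Hist1h2ao lie on opposite strands with 23042 bases between their starts, and their windows share a run of 200 identical bases, from base 1 of the first and base 101 of the second. Hist1h2bj faces the H2A gene Hist1h2ag across 270 bases, so that 252 bases of their windows are the same stretch of DNA read on opposite strands. Hist1h2bk faces Hist1h2ah in the same way across 302 bases, with 277 bases in common. A motif in such a shared stretch was counted for both genes, so the counts by motif are not all of separate sites. The sequence is that of the reference strain, C57BL/6J, and NOD may differ from it.

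Near-identical copies limit what a count of 1 member means. Only 16.3% of the members' counts above 0 were whole numbers (within 1e-06), against 58.7% over all genes. A count that is not whole comes from an estimate, not from whole reads. The median member had 50.5% of its 50-base windows found in no other member, but Hist1h2ap had 6.93% and Hist1h2ao 6.50%. Of the windows of Hist1h2ap, 93.1% were also in Hist1h2ao, and 75.1% were in other members. The split between these 2 genes, and values of other close copies, are therefore uncertain.

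H2A mRNA dominated. On the length-scaled TPM measure, Hist1h2ap averaged 1563 TPM over the 16 libraries and ranked 79 among all identifiers, near H3f3a (1413 TPM, rank 85), a replication-independent H3.3 gene. Hist1h2ao averaged 684 TPM (rank 210), and the next member, Hist2h2aa2, 30.3 TPM (rank 5363). Together Hist1h2ap and Hist1h2ao held 83.1% to 90.2% of the members' summed TPM in every library. Of the 65 members, 11 averaged above 10 TPM, 42 from 1 to 10 and 12 under 1, and the median of the 63 members other than the leading H2A genes was 3.39 TPM. Nucleosomes hold equal amounts of the 4 core histones, but the summed TPM of controls was 1753 ± 313 for H2A, 66.6 ± 7.85 for H2B, 34.1 ± 8.97 for H3 and 41.3 ± 7.95 for H4 (SD, n = 6). H1 summed to 33.1 ± 10.3 TPM.

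Whether these libraries were poly(A)-selected or depleted of ribosomal RNA is not stated in the sources used here, and this bears on RNAs that have no poly(A) tail. Rn7sk, the 7SK RNA, which has no tail, averaged 586 TPM (rank 241). Rmrp averaged 5.78 TPM, Rpph1 8.05 TPM and Terc 0.132 TPM, and Rny1 and Rnu7 were at 0 in every library. Of the other RNAs listed below as lacking a tail, Malat1 averaged 956 TPM (rank 148), Neat1 109 TPM and Rny3 2.79 TPM. Median TPM was 4.98 for the 19 members, other than the leading H2A genes, annotated to end at most 100 bases past the stem-loop, 3.14 for the 21 with longer annotated ends and 2.23 for the 23 with no match. How far the selection of RNA sets these levels was not tested.

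In the series as a whole, library totals were 17955743 to 35637813 estimated counts. Nfkbid was at 28.9 to 36.9 CPM (counts scaled to a library size of 1000000) in controls, 28.2 to 37.8 CPM in knockout-labelled and 115 to 310 CPM in transgenic libraries. The level was thus not clearly lower under the knockout label. Which exons were deleted is not stated in the sources used here, so a count over the whole gene may not check the label. Every difference below is given for the libraries as labelled. Controls all carry mouse identifiers of a series of their own, so that genotype and identifier series cannot be told apart in either comparison with controls. Markers of double-positive thymocytes (12 genes) summed to 6393 to 9337, 6739 to 8252 and 6515 to 7213 CPM in the order control, knockout-labelled, transgenic. Summed markers of macrophages (6 genes) were 1.23 to 6.12, 0.483 to 5.35 and 8.43 to 14.4 CPM in the same order, of dendritic cells (4 genes) 1.23 to 2.95, 1.08 to 6.49 and 6.29 to 8.001 CPM, and of B cells (10 genes, of which Ighm held most of the sum) 393 to 460, 360 to 493 and 627 to 761 CPM. Granulocyte markers (4 genes) summed to at most 0.421 CPM, with Elane at 0 throughout.

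Of the 65 members, 52 passed the filter on low counts. Of the 13 that did not, Hist1h2aa, Hist1h2ba and Hist2h3c1 had no count after rounding, and none had over 117 counts in the 16 libraries together. The counts behind the 52 were small for most: 4 averaged under 10 counts per library, 40 between 10 and 100, and 8 at least 100, with Hist1h2ap at 8890.

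Both the knockout-labelled and the transgenic libraries held more histone mRNA than the controls. The sum over all 65 members was 493 ± 74.0 CPM in controls (SD, n = 6), 757 ± 137 CPM in knockout-labelled (n = 5) and 780 ± 157 CPM in transgenic libraries (n = 5). The log2 ratio of the means to the controls was 0.62 and 0.66. Beside this rise, 3 of 12 double-positive markers were called lower and 1 higher in knockout-labelled libraries, and 8 lower and 1 higher in transgenic ones. Markers of mature single-positive cells were called higher in 0 of 5 and 5 of 5 cases (median log2 fold change 0.38 and 0.89), those of B cells in 4 of 10 (2 were lower) and 9 of 10, those of macrophages in 0 and 5 of 5 tested and those of dendritic cells in 0 and 3 of 4. Markers of double-negative thymocytes were called higher in 2 and 3 of 8, with 0 lower (median log2 fold change 0.30 and 0.38). The part of other cells in the histone rise was not tested. Bulk RNA cannot tell more cells that make histone mRNA from more of it per cell. The 63 members other than the leading H2A genes summed to 97.6 ± 12.0, 130 ± 19.2 and 131 ± 14.8 CPM, log2 ratios of 0.41 and 0.42.

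**Figure D1:**
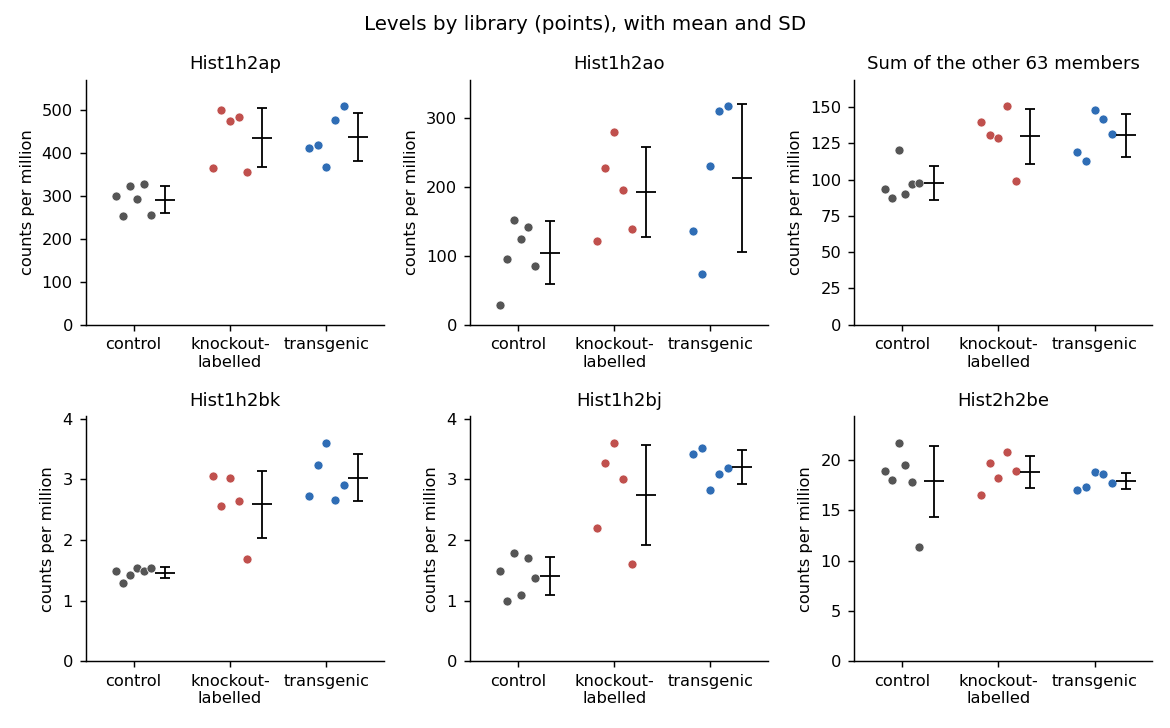
Scaled counts (CPM, y axis, from 0) of 5 members and of the sum of the 63 members other than Hist1h2ap and Hist1h2ao in each control, knockout-labelled and transgenic library (points), with mean and SD beside them. Hist1h2ap lay at 253 to 327 CPM in the controls and in the 10 remaining libraries at 356 to 509 CPM, while Hist2h2be overlapped in all groups.

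Hist1h2ap, an H2A gene (chr13:21833026-21833507, minus strand, 1 exon), was at 299, 253, 322, 292, 327 and 255 CPM in the controls. It was at 364, 498, 474, 484 and 356 CPM in the knockout-labelled and at 411, 419, 368, 477 and 509 CPM in the transgenic libraries. Every library of both groups was above every control. The log2 fold change was 0.54 (SE 0.11, edgeR adjusted p = 0.00252) and 0.57 (SE 0.11, edgeR adjusted p = 0.000685).

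Hist1h2ao (chr13:21810465-21810944, plus strand) was at 28.1, 95.1, 152, 124, 141 and 85.4 CPM in controls, at 122, 227, 280, 195 and 139 CPM in knockout-labelled and at 136, 73.2, 230, 310 and 317 CPM in transgenic libraries. The groups overlapped, and its log2 fold changes of 0.66 (SE 0.46, edgeR adjusted p = 0.311) and 0.85 (SE 0.44, edgeR adjusted p = 0.149) did not pass. Its part of the 2 genes' joint count ran from 8.59% in control 1 to 39.4% in transgenic 4, and within the transgenic group alone it was 14.9% in replicate 2. Summed, which does not depend on the split, the 2 genes were at 396 ± 66.1 CPM in controls, 628 ± 129 CPM in knockout-labelled and 650 ± 148 CPM in transgenic libraries.

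In the knockout-labelled libraries, 11 of the 52 tested members passed the test as higher and 0 as lower (21.2%), beside 26.4% of all 14933 genes tested, 16.4% as higher and 10% as lower. In the transgenic libraries, 20 of 52 were higher and 0 lower (38.5%), beside 38.6% of all genes, 23% as higher and 15.6% as lower. The share called was thus below or equal to that of all genes, and the direction was 1 way: 49 of the 52 log2 fold changes were above 0 in knockout-labelled and 48 in transgenic libraries. The median log2 fold change of the members was 0.65 and 0.78, that of all genes 0.02 and 0.03. All 11 members called in knockout-labelled libraries were also called in transgenic ones, 55% of the longer list; the comparisons share their controls.

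The count rested on few libraries. With 1 library left out it ran from 5 to 19 for the knockout label and from 10 to 21 for the transgene. Without knockout 5, which was lowest of its group in Hist1h2ap, Hist1h2bk and Hist1h2bj, it was 19, and without control 2 it was 5 and 10. Without the libraries that an earlier analysis of these data found high in MHC class II transcripts (control 1, knockout 1 to 3) it was 1 and 11. Of the knockout-labelled group, that fit kept only knockout 4 and knockout 5. Without those high in interferon-response transcripts (control 2, transgenic 3 and 5) it was 6 and 5, and in males alone 7 and 11. The share of all genes called in each of these fits is not given here, so the counts cannot be read as particular to the members. Without the MHC class II set, the S-phase genes called in knockout-labelled libraries, listed below, fell from 22 to 13 and the mitosis genes from 13 to 4. All 11 knockout-labelled calls were lost without the MHC class II set, and the 1 member called there was Hist1h1c (0.45). The log2 fold changes in that fit were 0.51 for Hist1h2ap, 0.81 for Hist1h2bj, 0.62 for Hist1h2bk and 1.497 for Hist1h4a, described next. No member was called lower under any of these settings.

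Read without a test, 3 of 52 members (5.77%) were higher in every knockout-labelled library than in every control, beside 8.77% of all genes: Hist1h2an, Hist1h2ap and Hist1h2bk. In transgenic libraries 9 of 52 were (17.3%), beside 13.7% of all genes: Hist1h2ag, Hist1h2ap, Hist1h2bj, Hist1h2bk, Hist1h2bn, Hist1h3i, Hist1h4c, Hist1h4d and Hist2h2ac. No member was lower in every library of either group, beside 5.34% and 7.88% of all genes.

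**Figure D2:**
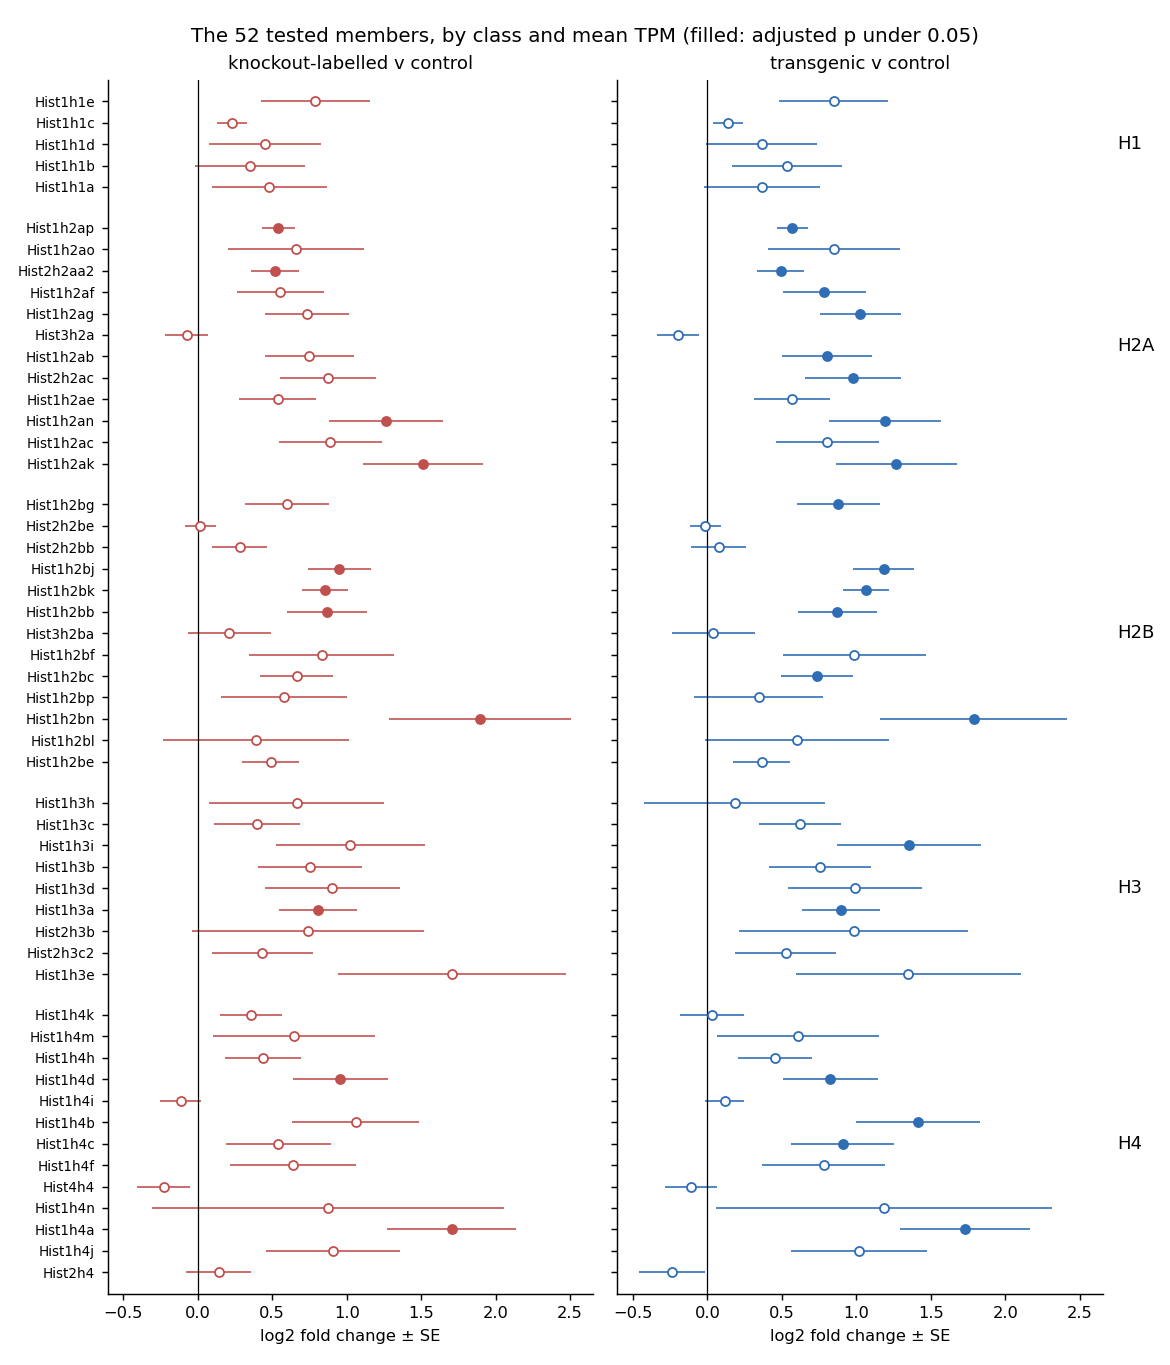
Log2 fold change (x axis) with its SE for each of the 52 tested members, knockout-labelled v control on the left and transgenic v control on the right, grouped by histone class and ordered by mean TPM; filled points passed the test (edgeR adjusted p under 0.05). Nearly all points lie to the right of 0, with Hist3h2a, Hist1h4i, Hist4h4, Hist2h4 and Hist2h2be near or below it in 1 or both panels.

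H2A, the core histone that dimerises with H2B, had 4 of 12 tested members higher in knockout-labelled and 8 of 12 in transgenic libraries. Called were thus 33.3% and 66.7%, beside 26.4% and 38.6% of all genes. Hist2h2aa2, of the Hist2 cluster, was at 5.24 to 7.89 CPM in controls, 6.86 to 11.2 CPM in knockout-labelled and 7.24 to 13.3 CPM in transgenic libraries; the ranges overlapped, and the log2 fold changes were 0.52 (SE 0.16, edgeR adjusted p = 0.025) and 0.49 (SE 0.16, edgeR adjusted p = 0.0217). Those calls were lost when any of 5 libraries was left out of the former comparison or any of 4 out of the latter. Of the 50-base windows of Hist2h2aa2, 0% were found in no other member. The other H2A member to name is Hist3h2a, alone with Hist3h2ba in the Hist3 cluster. It was at 6.68 to 13.7 CPM in controls, 8.36 to 13.6 CPM in knockout-labelled and 7.23 to 11.3 CPM in transgenic libraries, and its log2 fold changes were -0.07 and -0.20 (edgeR adjusted p = 0.741 and 0.283).

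H2B had 4 of 13 tested members higher in knockout-labelled (30.8%) and 6 of 13 in transgenic libraries (46.2%), beside 26.4% and 38.6% of all genes called. It also had the smallest p of all members. Hist1h2bk was at 1.49, 1.30, 1.42, 1.53, 1.496 and 1.54 CPM in controls, at 3.05, 2.55, 3.02, 2.64 and 1.68 CPM in knockout-labelled and at 2.73, 3.241, 3.605, 2.66 and 2.91 CPM in transgenic libraries. No library of either group reached down to the controls. The log2 fold changes were 0.85 (SE 0.16, edgeR adjusted p = 0.00134) and 1.06 (SE 0.15, edgeR adjusted p = 9.92e-05), on 28 to 39 counts per control library.

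Hist1h2bj was at 1.49, 0.999, 1.78, 1.10, 1.71 and 1.38 CPM in controls, 2.21, 3.28, 3.61, 3.01 and 1.599 CPM in knockout-labelled and 3.41, 3.51, 2.82, 3.08 and 3.19 CPM in transgenic libraries. Knockout 5 lay among the controls, and all transgenic libraries lay above them. The log2 fold changes were 0.95 (SE 0.21, edgeR adjusted p = 0.00393) and 1.18 (SE 0.20, edgeR adjusted p = 0.00036). Hist1h2ag, which faces it across the shared promoter printed above, had log2 fold changes of 0.73 (edgeR adjusted p = 0.0651) and 1.03 (edgeR adjusted p = 0.0072).

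Of the H2B genes with the highest TPM, Hist1h2bg was at 1.96 to 5.13 CPM in controls, 2.23 to 6.83 CPM in knockout-labelled (log2 fold change 0.60, edgeR adjusted p = 0.132) and 3.98 to 6.73 CPM in transgenic libraries (0.88, edgeR adjusted p = 0.0213). The transgenic call was lost without the MHC class II or interferon sets and without control 1, control 2 or transgenic 4. A call in knockout-labelled libraries was gained with a replicate block, with Rn7sk as a covariate and without knockout 5. Hist2h2be was at 17.9 ± 3.49 CPM in controls, 18.8 ± 1.59 CPM in knockout-labelled and 17.9 ± 0.813 CPM in transgenic libraries, with log2 fold changes of 0.02 (SE 0.11, edgeR adjusted p = 0.923) and -0.01 (SE 0.10, edgeR adjusted p = 0.927). All of its 50-base windows were found in no other member, and its counts were whole in all 16 libraries. For Hist1h2bk 25.8%, for Hist1h2bj 40.6% and for Hist1h2ag 21.1% of the windows were found in no other member. Their counts were whole in 0 libraries. Hist2h2bb had log2 fold changes of 0.28 and 0.08 (edgeR adjusted p = 0.273 and 0.772).

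H3 had 1 of 9 tested members higher in knockout-labelled (11.1%) and 2 of 9 in transgenic libraries (22.2%), below the 26.4% and 38.6% of all genes. The member called in both was Hist1h3a, at 0.592 to 1.21 CPM in controls, 0.758 to 2.03 CPM in knockout-labelled and 1.122 to 2.21 CPM in transgenic libraries (edgeR adjusted p = 0.0319 and 0.0127). Hist1h3i, at 0.274 to 0.919 CPM in controls and 1.02 to 2.11 CPM in transgenic libraries, was called only there (log2 fold change 1.35, edgeR adjusted p = 0.0368). The call was lost when any of 7 libraries was left out. It was also lost with no filter (1.33), in males (1.08), with a replicate block (1.26) and without the interferon set (1.25). The H3 genes highest in TPM, Hist1h3h (0.66 and 0.18) and Hist1h3c (0.40 and 0.62), did not pass, but Hist1h3c passed in transgenic males (1.13).

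H4 had 2 of 13 tested members higher in knockout-labelled (15.4%) and 4 of 13 in transgenic libraries (30.8%), below the 26.4% and 38.6% of all genes. Hist1h4a was at 0.115, 0.185, 0.162, 0.0548, 0.160 and 0.497 CPM in controls, at 0.976, 0.255, 0.541, 0.852 and 0.337 CPM in knockout-labelled and at 0.488, 0.586, 0.695, 0.851 and 0.524 CPM in transgenic libraries. Control 6 overlapped both groups, and the control counts were 1 to 9 per library. The log2 fold changes were 1.70 (SE 0.44, edgeR adjusted p = 0.00883) and 1.73 (SE 0.43, edgeR adjusted p = 0.00522). Without knockout 1 the knockout-labelled call was lost. Hist1h4k (0.36 and 0.03), Hist1h4m (0.65 and 0.61) and Hist1h4h (0.44 and 0.45), the H4 genes highest in TPM, did not pass.

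H1, which binds the linker DNA between nucleosomes, had 0 of 5 tested members called by edgeR in either comparison. By edgeR's unadjusted p, 2 of the 5 were under 0.05 in knockout-labelled and 1 in transgenic libraries. Hist1h1e was at 1.63 to 6.73 CPM in controls, 3.28 to 8.99 CPM in knockout-labelled and 4.02 to 8.62 CPM in transgenic libraries, with log2 fold changes of 0.79 (edgeR adjusted p = 0.127) and 0.85 (edgeR adjusted p = 0.0799). It passed in transgenic libraries with DESeq2 (0.82) and without control 3, control 6 or transgenic 2, and in both comparisons with a replicate block (1.05 and 1.05) and with Rn7sk as a covariate (0.67 and 0.68). Hist1h1c, the H1 gene with the most counts, had 0.23 and 0.14. It passed in knockout-labelled libraries without knockout 3 and without the MHC class II set (0.45). Hist1h1d had 0.45 and 0.36.

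Because reads are shared within a class, each class was also entered in the fit as 1 row, with no test. The log2 fold changes were 0.41 and 0.36 for H1, 0.57 and 0.66 for H2A, 0.32 and 0.35 for H2B, 0.68 and 0.78 for H3 and 0.31 and 0.36 for H4 (SE 0.175 and 0.172, 0.155 and 0.149, 0.085 and 0.084, 0.255 and 0.252, 0.148 and 0.146). All 5 classes were above 0 in both comparisons. H3 had the highest value and the widest error. A row is weighted towards its most abundant members. In controls Hist2h2be held 17.9 of the 32.3 CPM of H2B, and Hist1h1c 10.3 of the 18.8 CPM of H1. The median log2 fold changes of tested members were 0.45 and 0.37 for H1, 0.69 and 0.80 for H2A, and 0.60 and 0.74 for H2B. For H3 they were 0.75 and 0.90, and for H4 0.64 and 0.78, so H2B and H4 lay closer to H3 by this measure.

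The members also differed by their annotated ends. Of the 19 tested members annotated to end at most 100 bases past the stem-loop, 6 were higher in knockout-labelled and 10 in transgenic libraries (median log2 fold change 0.75 and 0.85). Of the 18 with longer annotated ends 1 and 3 were (median 0.51 and 0.55), and of the 15 with no match 4 and 7 (median 0.66 and 0.74). The shares called were 31.6% and 52.6%, 5.56% and 16.7%, and 26.7% and 46.7% in that order, beside 26.4% and 38.6% of all genes. The summed CPM of the first set without the leading H2A genes was 21.5 ± 4.196, 33.9 ± 8.58 and 36.4 ± 4.89 (log2 ratios 0.66 and 0.76), that of the set with longer ends 46.1 ± 5.35, 58.1 ± 7.74 and 57.0 ± 7.85 (0.34 and 0.31). The summed CPM of the set with no match was 30.1 ± 5.01, 37.7 ± 4.31 and 37.2 ± 4.60 (0.33 and 0.31). On summed TPM the log2 ratios of the first set, again without the leading H2A genes, were 0.61 and 0.68. Those of the set with longer ends were 0.41 and 0.43, and of the set with no match 0.51 and 0.48. No test of the difference between these sets was made. By cluster, 10 of 42 tested Hist1 members were called in knockout-labelled and 18 of 42 in transgenic libraries, 1 and 2 of 7 in Hist2, and 0 of 2 in Hist3 and 0 of 1 in Hist4, where Hist4h4 had -0.23 and -0.11.

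Read beside the printed motifs, 10 of the 39 tested members with CCAAT in the window were called in knockout-labelled and 17 of 39 in transgenic libraries. Of the 9 without it, all H4 genes, 0 and 1 were called. The median log2 fold changes were 0.66 and 0.81 with the motif and 0.64 and 0.61 without. With the octamer they were 0.75 and 0.81 (9 tested), without it 0.65 and 0.78 (39 tested). With TATAAA they were 0.79 and 0.83 (29 tested; 7 and 11 called), without it 0.52 and 0.60 (19 tested; 3 and 7 called). With AAACACA they were 0.45 and 0.53 (5 tested; 0 and 1 called), without it 0.66 and 0.81 (43 tested; 10 and 17 called). The differences between these sets were not tested. Of all genes, 26.4% and 38.6% were called in the same comparisons.

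**Figure D3:**
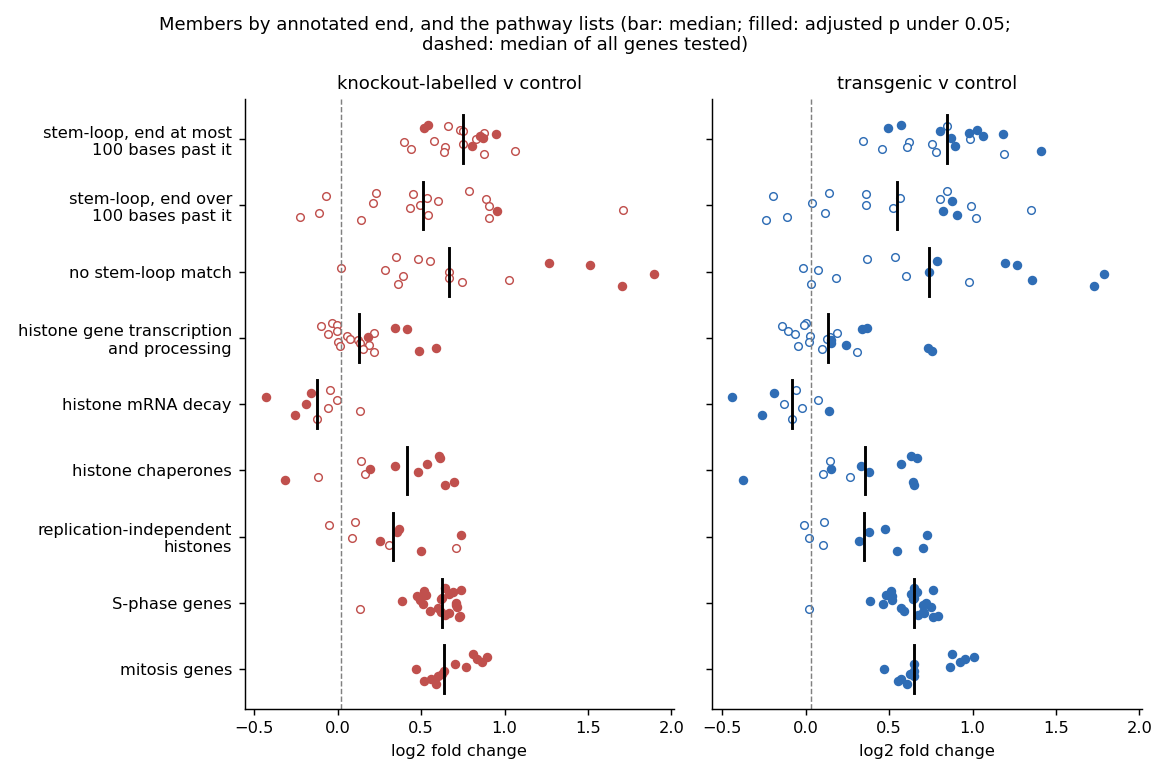
Log2 fold change (x axis) of each tested member by annotated transcript end (upper 3 rows) and of each tested gene of 6 related lists (lower rows), knockout-labelled v control on the left and transgenic v control on the right; black bars are medians, the dashed line is the median of all genes tested and filled points passed the test. Members scatter widely, while 22 of 23 S-phase and 13 of 13 mitosis genes passed in both panels within a narrow range.

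Genes of DNA replication, whose mRNAs carry poly(A) tails, were set beside the members. Of 23 S-phase genes, 22 passed as higher in each comparison, with a median log2 fold change of 0.63 and 0.65. Dut, which clears dUTP (0.73, edgeR adjusted p = 0.000275; 0.77, edgeR adjusted p = 1.72e-05), and Fen1, the flap endonuclease of lagging-strand synthesis (0.64 and 0.67), had the smallest p of the list. All 13 mitosis genes passed in both (median 0.64 and 0.65), among them the mitotic kinase gene Plk1 (0.81 and 0.88) and the cyclin gene Ccnb2 (0.84 and 0.95). In males alone 7 of 23 and 5 of 13 passed in transgenic libraries.

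Of 20 genes for histone gene transcription and pre-mRNA processing, 0 were lower in either comparison, and 5 (knockout-labelled) and 7 (transgenic) were higher (median log2 fold change 0.13 and 0.14). The shares called, 25% and 35%, were close to the 26.4% and 38.6% of all genes. Slbp, the stem-loop binding protein, rose (0.34, edgeR adjusted p = 0.023; 0.37, edgeR adjusted p = 0.00902), as did the S-phase entry genes E2f1 (0.59 and 0.73) and Ccne1 (0.49 and 0.76). The knockout-labelled call of Slbp was lost in males, with a replicate block (0.33), without the MHC class II or interferon sets, and without control 2, knockout 2, knockout 3 or knockout 4. Its transgenic call was lost in males (0.20) and without transgenic 2. The calls of E2f1 were lost in males in both comparisons, and without the MHC class II set in knockout-labelled libraries. Npat, the coactivator specific to histone genes, had -0.03 and 0.00 (edgeR adjusted p = 0.722 and 0.957), and Casp8ap2, which encodes FLASH, a part of the cleavage machinery, -0.01 in both. The count in knockout-labelled libraries was 3 when control 2, knockout 2, knockout 3 or knockout 4 was left out, and in transgenic libraries 2 without transgenic 2 and 4 without transgenic 4.

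Of 9 genes of histone mRNA decay, 4 were lower and 0 higher in knockout-labelled libraries, 3 lower and 1 higher in transgenic ones. The share called was 44.4% in each, beside 26.4% and 38.6% of all genes. Smg1, a kinase of mRNA surveillance, fell (-0.43, edgeR adjusted p = 0.000183; -0.44, edgeR adjusted p = 1.34e-05), as did Tut7, a uridyl transferase (-0.25 and -0.26). Of 12 histone chaperones, 8 were higher and 1 lower in each comparison (75% called). They included Chaf1b, of the assembly factor CAF-1 (0.61 and 0.67), and Mcm2, which is also a replication helicase subunit and on the S-phase list (0.64 and 0.65). The member that fell was Atrx (-0.32 and -0.37), which deposits the replication-independent H3.3.

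Of 10 tested replication-independent histone genes, most of whose mRNAs carry poly(A) tails, 5 and 6 were higher and 0 lower (median 0.33 and 0.35). The shares called were 50% and 60%, beside 26.4% and 38.6% of all genes. H2afx, the H2A.X gene, which is known to make both a stem-loop and a polyadenylated mRNA, had the highest log2 fold changes (0.74, edgeR adjusted p = 0.000486; 0.73, edgeR adjusted p = 0.000128), and H2afv, an H2A.Z gene, had 0.35 and 0.38. The H3.3 genes H3f3a (0.10 and 0.11) and H3f3b (-0.05 and -0.01) did not pass (edgeR adjusted p = 0.116 to 0.891). The knockout-labelled count was 3 without control 2.

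Transgenic libraries were also set against knockout-labelled ones, which share an identifier series. Of the 52 members, 0 were called, beside 1.17% of all genes by edgeR (1.07% higher, 0.0938% lower); 0 had an unadjusted p under 0.05, and DESeq2 and limma-voom called 0. The median log2 fold change was 0.04, with single members from -0.48 to 0.37. Hist1h2ap had 0.03 (SE 0.11), Hist1h2bk 0.21 (SE 0.15), and the smallest p were those of Hist2h4 (-0.38, SE 0.22, edgeR adjusted p = 0.687) and Hist1h4i (0.23, SE 0.14, edgeR adjusted p = 0.699). Of the other-cell markers, 4 of 10 of B cells were called higher in transgenic libraries, and 0 of 5 tested of macrophages, 0 of 4 of dendritic cells and 0 of 5 of mature single-positive cells were called. By edgeR's unadjusted p, 6 of 10 B cell markers were under 0.05 (median log2 fold change 0.88) and 5 of 5 of macrophages (1.67). So were 2 of 4 of dendritic cells (0.92, with 1 of 4 fold changes below 0) and 2 of 5 of mature single-positive cells (0.47).

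Between males and females 0 of 52 members were called, beside 0.141% of all genes by edgeR (0.0603% higher in males, 0.0804% lower); 4 had an unadjusted p under 0.05. Hist1h1c (log2 fold change of males over females 0.29, SE 0.09, edgeR adjusted p = 0.261) and Hist3h2a (0.31, SE 0.13, edgeR adjusted p = 0.409) had the smallest p. DESeq2 and limma-voom called 0 members.

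Across libraries, the summed level of the 63 members was set against RNAs that could move with it, within each identifier series because the groups separate. Against Rn7sk, which varied from 43.3 to 172 CPM in controls, 40.7 to 153 CPM in knockout-labelled and 62.5 to 132 CPM in transgenic libraries, Pearson's r on log2 CPM was 0.66 in the 6 controls (Spearman's rho 0.89) and 0.75 in the other 10 libraries (rho 0.76). Without the 2 libraries farthest from the median of Rn7sk it was 0.79 and 0.58. Against the summed S-phase genes r was 0.73 in controls (rho 0.54; 0.41 without 2 libraries) and 0.43 in the others (rho 0.38; 0.37 without 2). Against Malat1 r was 0.21 in controls (rho -0.03; 0.66 without 2 libraries) and 0.27 in the others (rho 0.22; -0.12 without 2). These are 6 of 12 relations computed, given as descriptions with no p, and all values of a library share its scaling. Of 9 other RNAs listed as lacking a poly(A) tail, 5 were tested, and 1 was called lower and 0 higher in each comparison. It was Malat1, a nuclear RNA, at 3206 to 4935 CPM in controls, 2693 to 3019 CPM in knockout-labelled and 2251 to 3300 CPM in transgenic libraries (-0.60, edgeR adjusted p = 0.00054; -0.63, edgeR adjusted p = 9.7e-05), so that the list, of which it held most, summed to 4581 ± 618, 3222 ± 151 and 3096 ± 435 CPM. Neat1 (-0.18 and -0.20) and Rn7sk (0.14 and 0.19, edgeR adjusted p = 0.832 and 0.745) did not pass. With the log2 CPM of Rn7sk as a covariate, 12 members were called higher in knockout-labelled and 20 in transgenic libraries. The share of all genes called in that fit is not given here.

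**Figure D4:**
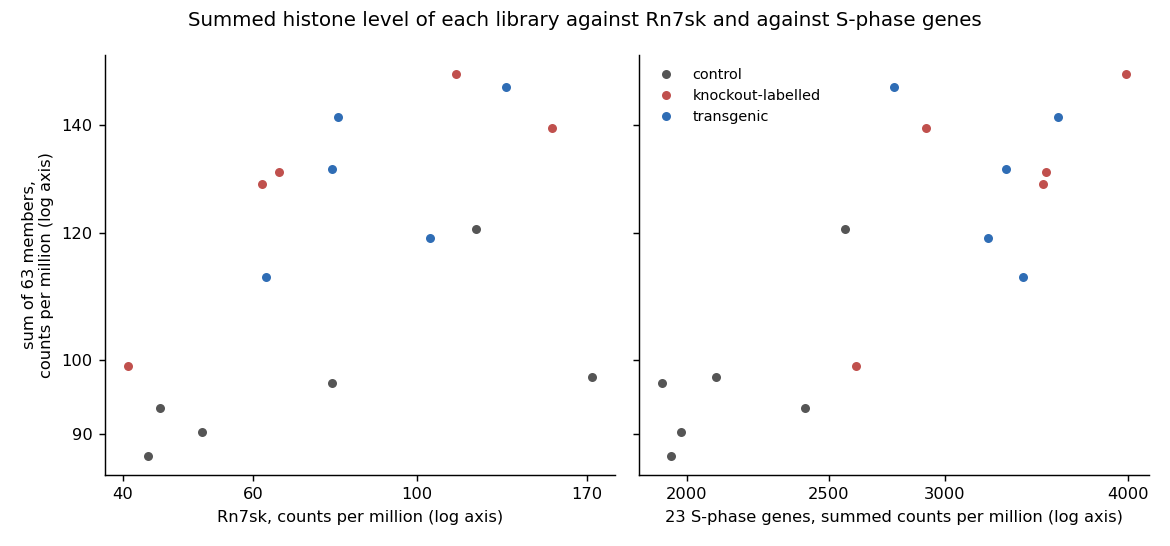
Summed CPM of the 63 members other than Hist1h2ap and Hist1h2ao (y axis, log) in each library against Rn7sk CPM (left, log) and against the summed CPM of 23 S-phase genes (right, log). Controls lie at 87.2 to 121 CPM and the others at 99.1 to 151 CPM; knockout 5, the lowest of the latter, is also lowest in Rn7sk (40.7 CPM) and in S-phase genes among them.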

How the data were processed

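Stranded KAPA libraries were prepared from total RNA with an integrity number above 9, 1 per mouse, from sorted thymocytes (per the labels' protocols). The submitters' processing notes name Bowtie 1.0.0, SAMtools 0.1.18, edgeR 3.24.3 and GRCm38 (mm10); the counting program is not stated in the sources used here. Each deposited file gives, per the file headers, TPM values and an expected count for 46517 identifiers; the deposited TPM values sum to 1000000 per library and entered no test. Whether counting used strand is not stated there either.

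Expected counts were rounded, filtered by edgeR's expression filter by group, scaled by TMM and fitted in edgeR 4.0.16 (R 4.3.3) by robust quasi-likelihood with group and sex over all 16 libraries (12 residual degrees of freedom). Two-sided p-values received Benjamini-Hochberg adjustment across 14933 genes; called, higher and lower mean an adjusted p under 0.05, which is what "edgeR adjusted p" gives. CPM use TMM-scaled sizes, and library totals of 17955743 to 35637813 limit the precision of low members. The fit was tested on simulated data. Libraries of a group differed by 4.56 to 80.1 in chi-square per degree of freedom, so none was a repeat. Replicates are separate mice by their identifiers.

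Alternatives were DESeq2 1.42.0, limma-voom (limma 3.58.1), RLE or total scaling, other filters, the fit without robust moderation or without sex, fits of the 2 groups alone or of males, a replicate block, sets of libraries or each library left out and, added after seeing the data, Rn7sk as a covariate. Replicate numbers in the titles did not pair the mice: the correlation of same-numbered libraries' deviations had a median of 0.029 (-0.164 to 0.345, 15 pairs). Promoters and stem-loops were read from RefSeq (GRCm38.p6) and GENCODE sequences.

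The members, gene lists and alternatives were chosen with earlier results of these data known. Named members were the 3 highest in mean TPM per class and the 4 with the smallest p among those called (if none, 2) per comparison; from each list the 2 with the smallest p, and always Slbp, Npat and Casp8ap2. Others named (Hist1h3a, Hist1h2ag, Hist4h4, Atrx, H3f3a, H3f3b, Rn7sk and members given by count) were chosen after their values were seen.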

Additional observations from a re-analysis of the deposited data

Results flagged for a closer look

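In 5 of 81 groups of values checked, 1 library stood apart from the rest of its group by Dixon's criterion; chance flags about 1 in 20. Hist2h2bb was at 2.65 CPM in transgenic 3, the others of the group at 1.64 to 1.91. Hist1h3h was at 0.716 CPM in knockout 5, the others at 2.21 to 2.78. Hist1h4a was at 0.497 CPM in control 6, the others at 0.0548 to 0.185. Hist1h4i was at 2.41 CPM in control 1, the others at 1.81 to 1.98. The sum of the 63 members other than Hist1h2ap and Hist1h2ao was 120.7 CPM in control 3, the other controls at 87.2 to 97.6 CPM.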

How the results depend on the processing

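No member was called lower under any setting. The share of all genes called under each setting is not given here. Members called higher in knockout-labelled libraries (11) were 7 with a floor of 1 CPM in 5 libraries, 6 with only the 2 groups compared, 7 in males, 1 without the libraries high in MHC class II transcripts, 6 without those high in interferon-response transcripts, and 5 to 19 with 1 library left out (5 without control 2, 17 without control 3, 6 without knockout 1, 7 without knockout 4, 19 without knockout 5). In transgenic libraries (20) they were 11 in males, 11 and 5 without those sets, and 10 to 21 with 1 library left out (10 without control 2 or transgenic 4, 13 without transgenic 5). With a replicate block, though the numbers do not pair the mice, 14 and 20 were called. Genes of transcription and processing called (5 and 7) were, in knockout-labelled libraries, 2 in males, 3 with a replicate block, 1 and 3 without the MHC and interferon sets and 3 to 7 with 1 library left out, and in transgenic ones 4 with no filter, 3 in males and 2 to 8. Chaperones (9) were 5 without the MHC set and 5 in transgenic males. Replication-independent histone genes (5) were 3 without either set and 3 to 5 with 1 library left out. S-phase genes (22) were 13 without the MHC set and 7 in transgenic males, and mitosis genes (13) 8 in males, 4 without the MHC set and 5 in transgenic males. Other RNAs without a poly(A) tail (1) were 2 without the interferon set in transgenic libraries, and 1 to 2 with 1 library left out. The log2 ratio of summed H2B was 0.50 and 0.55 on TPM, against 0.34 and 0.35 on CPM.

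Log2 fold changes that changed sign were close to 0 in most cases. In transgenic libraries Npat was -0.0288 with DESeq2 and with RLE, -0.0305 with the stricter floor, -0.0269 with 2 groups, -0.0217 with no filter, -0.00132 with totals, -0.108 in males and -0.00254 with Rn7sk, and -0.0806 to 0.0243 with 1 library left out. Neat1 was 0.0352 in transgenic males. Casp8ap2 was 0.0187 with no sex term in knockout-labelled libraries (-0.0528 to 0.0223 with 1 left out), and 0.0108 and 0.0144 without the MHC and interferon sets in transgenic ones (-0.129 to 0.0149). Hist1h2ao was -0.00918 in knockout-labelled libraries without the MHC set. Hist2h2be in knockout-labelled libraries was -0.00604 with DESeq2, -0.00614 with RLE, -0.00613 with the stricter floor, -0.00973 with 2 groups, -0.0127 in males, -0.0437 with a replicate block and -0.0352 without the interferon set (-0.0708 to 0.0725), and in transgenic ones 0.00659 with Rn7sk (-0.134 to 0.0388). Hist2h2bb in transgenic libraries was -0.164 without the interferon set (-0.059 to 0.117). Hist1h3h was -0.337 without the MHC set in knockout-labelled libraries, and in transgenic ones -0.261 with limma-voom, -0.173 without the MHC set, -0.00346 without the interferon set and -0.0641 with Rn7sk (-0.171 to 0.552). Hist1h4k in transgenic libraries was -0.00503 with DESeq2, -0.00214 with RLE, -0.00414 with the stricter floor, -0.0185 with 2 groups, -0.0453 without the interferon set and -0.0514 with Rn7sk (-0.0933 to 0.106). Hist2h4 was 0.0618 in transgenic males. In knockout-labelled libraries Hist1h4i was 0.0279 without the MHC set, and Hist3h2a was 0.0118 with no sex term, 0.0259 without the MHC set and 0.00849 without the interferon set. The cause was not tested for any of these. Apart from libraries left out 1 at a time, 1039 fold changes kept direction and call, 23 lost the call, 11 gained it and 38 changed sign. Single genes were recomputed in the 2 comparisons with controls, and for the other 2 comparisons only for the genes named there.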
